A study of Mus musculus with 6 samples.

Results

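The transcripts described here encode splicing factors and RNA helicases, the proteins that build and drive the spliceosome and that unwind RNA in other steps of gene expression. Members were the genes whose single symbol in the platform annotation starts with Srsf, Snrp, Sf3, Hnrnp, Prpf, Lsm and a digit, U2af, Ddx or Dhx, which gave 59 of the 6214 genes with a single symbol. They fall into 4 groups by name: 22 spliceosome core genes (Snrp, Sf3, Prpf, Lsm and U2af), 8 SR protein genes (Srsf), 12 hnRNP genes (Hnrnp) and 17 helicase genes (Ddx and Dhx). All 59 were measured, by 74 probes, and 54 had a value on all 6 arrays. The symbol of 7 further probes was not single, and these probes were left out.

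Male mice were 9 weeks old, and total RNA of their brains was hybridised to 6 two-colour cDNA arrays. On 3 arrays both channels held RNA of NY1DD mice, which carry a sickle haemoglobin transgene and model sickle cell anaemia, and on 3 arrays both channels held RNA of wild-type C57BL/6J mice. Within an array the Cy5 channel held RNA from mice given naloxone, an opioid receptor antagonist, for 10 min, and the Cy3 channel held RNA from mice of the same strain given saline for 10 min. All 6 arrays thus compared 1 drug with 1 vehicle, and the dose was not in the labels. The dyes were never swapped, so a dye bias shared by all arrays cannot be told apart from the drug in the mean of a strain or in the average of both strains, whereas subtracting 1 strain from the other removes it. No label states that arrays came from separate animals, and p-values therefore measure array spread. C57BL/6J replicates 1 and 2 share a number in their titles, whose meaning is not stated. No such number is shared between the strains, so whatever the numbers stand for cannot be told apart from strain.

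Every value below is a log2 ratio, likely of naloxone over saline; if the deposited ratios run the other way, every sign turns. A value of 0 is the median probe of an array. The arrays gave ratios without intensities, so the level of a transcript and its distance from background are unknown. In RNA of whole brain, fewer cells of a type and less RNA per cell cannot be told apart.

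A spliceosome is assembled anew on each intron from small nuclear ribonucleoproteins, whose Sm or LSm protein rings sit on the U RNAs, and from many further proteins. SR proteins bind exonic enhancers and recruit the U1 particle and the U2 auxiliary factor U2AF to splice sites, while hnRNPs coat nascent RNA and often act against the use of a site. Helicases of the DEAD and DEAH families drive the rearrangements of the spliceosome, and relatives act in ribosome assembly, RNA export and translation. Neurons make wide use of alternative splicing in channels, receptors and synaptic proteins.

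In limma, 0 of 59 members passed an adjusted p of 0.05 in any of the 4 comparisons, and 0 of 9685 features (6146 genes and the probes without a single symbol) passed in any of them, a background of 0%. The smallest adjusted p of a member was 0.503 for NY1DD, 0.355 for C57BL/6J, 0.969 for NY1DD minus C57BL/6J and 0.242 for the average of both strains. At an unadjusted p under 0.05 the members numbered 6 in NY1DD (10.2%, against 8.35% of all features), 2 in C57BL/6J (3.39%, against 6.93%), 1 in the difference (1.69%, against 4.5%) and 9 in the average (15.3%, against 10.8%). The shares of members lay near those of all features, on both sides of them. The median SE of a member's mean was 0.18 in each strain and 0.26 for the difference.

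In all, 6 genes stayed on 1 side of 0 on every array, and they include the members with the smallest p in the average of both strains. Srsf2 and Ddx46 were above 0 on all 6 arrays (2 of 54 members, 3.7%, against 2.45% of all features). Srsf1, Srsf9, Ddx10 and Ddx19b were below 0 on all 6 arrays (4 of 54 members, 7.41%, against 4.66% of all features). The core group and the hnRNPs had no such gene. For Ddx46 and Ddx19b some of these ratios were nearer 0 than the median of all probes from the same well position of the source plates, as given below. The stretches of 150 bases that precede the RefSeq start (GRCm38.p6) of 5 of the 6 genes are shown because their transcripts kept 1 sign throughout, in 2 directions; Ddx19b has 2 starts in that table and is left out. Capitals mark matches on either strand to TGACG, the core of the cAMP response element, to the CCAAT box, to the GC box with the letters GGGCGG, and to the TATA box with the letters TATAAA. The windows lie at chr11:88047223-88047372 on the plus strand (Srsf1), chr5:115327027-115327176 on the plus strand (Srsf9), chr9:53248113-53248262 on the minus strand (Ddx10), chr11:116853095-116853244 on the minus strand (Srsf2) and chr13:55634849-55634998 on the plus strand (Ddx46), each read 5′ to 3′ on its own strand.
Srsf1: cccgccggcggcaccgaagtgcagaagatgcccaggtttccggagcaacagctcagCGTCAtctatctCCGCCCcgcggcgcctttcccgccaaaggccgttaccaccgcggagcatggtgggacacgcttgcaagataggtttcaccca
Srsf9: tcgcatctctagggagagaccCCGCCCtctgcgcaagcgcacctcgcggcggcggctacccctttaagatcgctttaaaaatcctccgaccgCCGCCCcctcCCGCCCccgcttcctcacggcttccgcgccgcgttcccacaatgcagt
Ddx10: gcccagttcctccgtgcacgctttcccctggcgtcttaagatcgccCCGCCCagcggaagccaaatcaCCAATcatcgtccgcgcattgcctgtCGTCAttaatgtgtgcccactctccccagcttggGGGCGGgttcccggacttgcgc
Srsf2: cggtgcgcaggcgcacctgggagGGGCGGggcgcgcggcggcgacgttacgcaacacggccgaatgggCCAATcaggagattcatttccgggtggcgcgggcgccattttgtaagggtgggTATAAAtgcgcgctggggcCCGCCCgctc
Ddx46: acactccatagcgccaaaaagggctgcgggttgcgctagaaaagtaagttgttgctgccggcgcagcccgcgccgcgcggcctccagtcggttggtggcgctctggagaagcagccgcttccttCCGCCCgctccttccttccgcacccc

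Each of the 5 windows shown held a GC box, and those of Srsf1 and Ddx10 held the TGACG core as well. The windows of both Ddx19b starts held 0 GC boxes; 1 held 2 TGACG cores and the other 2 CCAAT boxes. The windows of Ddx10 and Srsf2 held the CCAAT box, and that of Srsf2 the TATA box. A promoter entry was found for 51 of the 59 members, with 63 windows in all. The core was in 39.7% of them, against 21.1% of 6577 windows of the genes on the array and 13.3% of all 32851 windows in the table. The full element TGACGTCA, which contains the core on both strands, was in the windows of Lsm2 and Snrpa alone, or 3.17% against 2.46% and 1.36%. The CCAAT box was in 39.7% against 25.6% and 24.5%, the GC box in 50.8% against 51.5% and 28.6%, and the TATA box in 6.35% against 3.41% and 7.57%. The GC content of the members' windows, 63.2%, was close to the 62.9% of the array genes and above the 54.8% of all windows. A match is a description of letters, and whether any factor binds there was not measured.

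**Figure D1:**
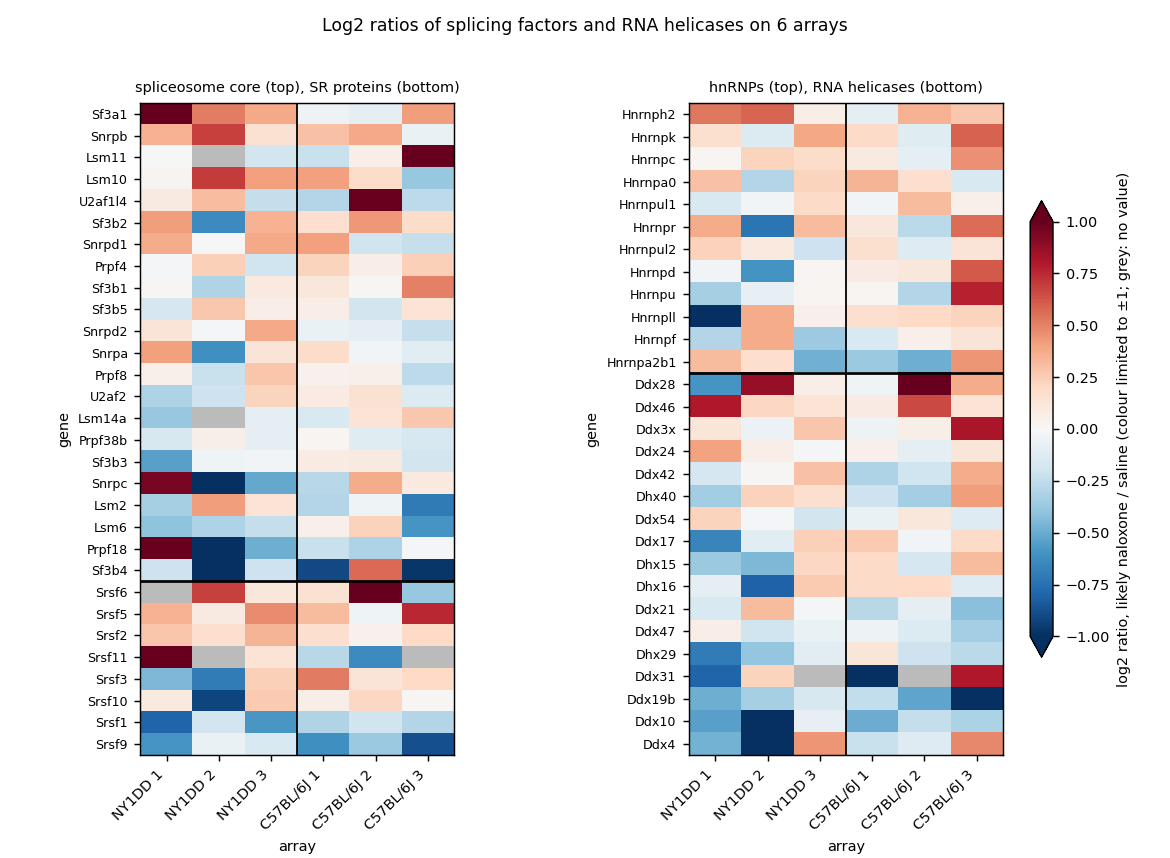
Log2 ratio (colour, limited to 1 on either side of 0) of each of the 59 members (rows, by group and by the average of both strains) on each of the 6 arrays (columns, NY1DD left and C57BL/6J right of the line); grey marks no value. Rows of 1 colour are few: Srsf2 and Ddx46 are red throughout, and Srsf1, Srsf9, Ddx10 and Ddx19b blue throughout.

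SR proteins, the activators of splice site choice, held 3 of these 6 genes. Srsf2, also known as SC35 and a component of nuclear speckles, had ratios of 0.28, 0.17 and 0.34 in NY1DD and 0.17, 0.04 and 0.20 in C57BL/6J. All 6 lay above 0 within a narrow range, and the strains overlapped. Its average was 0.20 (SE 0.09, n = 6, limma adjusted p = 0.480), or 0.13 with a correction for wells that subtracts, on each array, the median of all probes from the same well position of the source plates. Srsf1, the SR protein first purified as ASF/SF2, had -0.80, -0.18 and -0.58 in NY1DD and -0.30, -0.20 and -0.29 in C57BL/6J. The NY1DD arrays spread on both sides of the C57BL/6J arrays, which were nearly alike. The mean was -0.52 (SE 0.16, SD 0.32, n = 3, limma adjusted p = 0.525) in NY1DD and -0.39 (SE 0.11, limma adjusted p = 0.266) over both strains.

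Srsf9, a close relative of Srsf1, had -0.59, -0.07 and -0.15 in NY1DD and -0.61, -0.37 and -0.88 in C57BL/6J. Its C57BL/6J arrays were lower on the whole, but NY1DD replicate 1 lay among them. The C57BL/6J mean of -0.62 (SE 0.17, SD 0.26, n = 3, limma adjusted p = 0.355) had the smallest p of any member in that strain, and the average of -0.45 (SE 0.12, limma adjusted p = 0.242) the smallest of any member in any comparison. Without NY1DD replicate 1 the NY1DD mean of Srsf9 was -0.11 in place of -0.27. Srsf2, Srsf1 and Srsf9 were singled out for keeping the same sign on every array. The opposite signs of Srsf2 and of Srsf1 with Srsf9 on each array follow from that choice. The gap between them does not depend on where an array is centred, but that it is there on every array follows from the same choice.

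The other SR genes were mixed. Srsf5 had 0.35, 0.09 and 0.47 in NY1DD and 0.32, -0.04 and 0.75 in C57BL/6J, above 0 on 5 of 6 arrays, with an average of 0.32 (SE 0.13, limma adjusted p = 0.431). Srsf3, the smallest SR protein, had -0.45, -0.70 and 0.24 in NY1DD and 0.52, 0.13 and 0.20 in C57BL/6J. Its strains overlapped through NY1DD replicate 3, and the difference of -0.59 (SE 0.28) had a limma adjusted p of 0.969. One of its probes came from a well position of the source plates whose median over all probes was -0.97 on NY1DD replicate 2, where that probe read -1.09.

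Srsf10, a splicing repressor when dephosphorylated, lay close to 0 except on NY1DD replicate 2, with 0.10, -0.92 and 0.26 against 0.06, 0.21 and 0.01. Its well median on NY1DD replicate 2 was -0.92, the same as its ratio, and correcting for wells turned its NY1DD mean from -0.19 to 0.11. Srsf6 had no usable value on NY1DD replicate 1, where it sat at the lowest value of the file, and 0.68 and 0.11 on the other NY1DD arrays against 0.15, 1.65 and -0.38.

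Srsf11, which takes part in the inclusion of neuronal microexons, was measured on 2 arrays of each strain. The ratios were 1.12 and 0.14 on NY1DD replicates 1 and 3 and -0.28 and -0.64 on C57BL/6J replicates 1 and 2. The strains lay on opposite sides of 0, a split that arises more readily with 2 arrays a strain than with 3. The difference of 1.09 (SE 0.41, limma adjusted p = 0.969) was the only one of a member with an unadjusted p under 0.05. With the correction for wells the difference was 1.00. Srsf11 and Srsf6 decided the middle of this small group: the median of the 8 SR genes in NY1DD was 0.04, and -0.229 over the SR genes with a value on all 6 arrays.

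**Figure D2:**
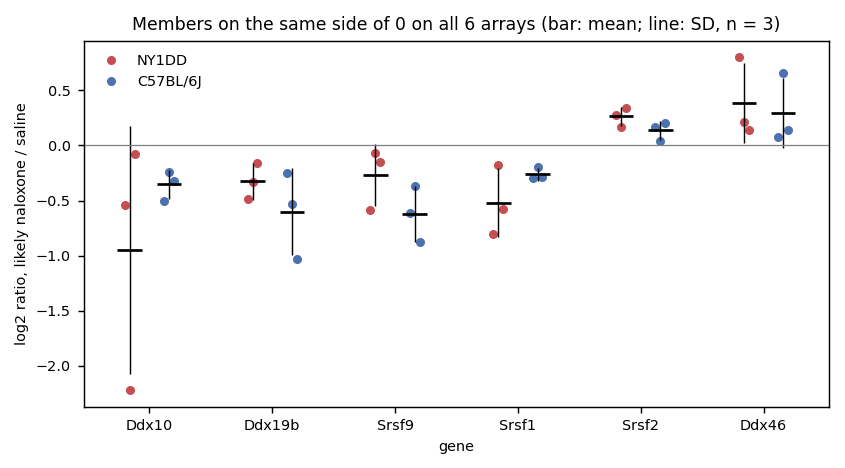
Log2 ratio (vertical axis) on each array (points; NY1DD red, C57BL/6J blue) of the 6 members on 1 side of 0 on all arrays, with the mean (bar) and SD (line, n = 3). Srsf2 is the narrowest, and Ddx10 in NY1DD the widest through a single array at -2.22.

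Among the helicases linked to splicing, Ddx46, the counterpart of yeast Prp5 that acts when U2 joins the branch site, was above 0 throughout, with 0.80, 0.21 and 0.14 in NY1DD and 0.08, 0.66 and 0.14 in C57BL/6J. One array of each strain stood above the rest, and the strains overlapped. The average was 0.34 (SE 0.14, limma adjusted p = 0.440). The NY1DD mean of 0.39 was 0.18 without NY1DD replicate 1. The C57BL/6J mean of 0.29 was 0.11 without C57BL/6J replicate 2 and 0.13 with the correction for wells. On NY1DD replicate 3 and C57BL/6J replicates 1 and 3 the well median of the Ddx46 probe (0.22, 0.13 and 0.22) exceeded its ratio. Subtracting that median puts Ddx46 below 0 on those arrays. Dhx15, which releases the intron lariat spliceosome, had -0.37, -0.45 and 0.21 in NY1DD and 0.19, -0.17 and 0.32 in C57BL/6J. Ddx17, a splicing and transcription cofactor, had -0.66, -0.11 and 0.24 against 0.26, -0.03 and 0.19. Both crossed 0 within each strain. Dhx16 and Ddx42, the other 2 of these 5 helicases, had averages of -0.06 and 0.00.

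Helicases of RNA export and translation included 2 genes with small p. Ddx19b, which strips proteins from messenger RNA at the nuclear pore, had -0.49, -0.33 and -0.16 in NY1DD and -0.25, -0.53 and -1.03 in C57BL/6J. All arrays were below 0 and the strains overlapped. The C57BL/6J mean was -0.61 (SE 0.18, SD 0.40, n = 3, limma adjusted p = 0.409), -0.39 without C57BL/6J replicate 3, and the average -0.47 (SE 0.13, limma adjusted p = 0.246). Its probe lay in a well with a median of -0.40 on NY1DD replicate 2, below its ratio of -0.33 there. Subtracting that median puts Ddx19b above 0 on that array. With the correction for wells the average was -0.42. Ddx3x, a helicase of translation initiation, had 0.12, -0.06 and 0.28 in NY1DD and -0.05, 0.06 and 0.82 in C57BL/6J, where 1 array stood apart.

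Dhx29, which helps the ribosome through structured leaders of messenger RNA, had -0.70, -0.39 and -0.11 in NY1DD and 0.12, -0.21 and -0.27 in C57BL/6J. The NY1DD mean was -0.40 (SE 0.16, SD 0.29, n = 3, limma adjusted p = 0.588), or -0.25 without NY1DD replicate 1. Its 3 probes differed: probe 2 had -1.71 and -1.39 on NY1DD replicates 1 and 2, where probes 1 and 3 had -0.20 and 0.49, and -0.19 and -0.28. The low mean thus came from 1 probe of 3 on 2 arrays.

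Of the 7 helicases of ribosome assembly, 2 had an average above 0 and 5 below. Ddx10, a factor of the small ribosomal subunit, had -0.54, -2.22 and -0.08 in NY1DD and -0.50, -0.24 and -0.32 in C57BL/6J. The NY1DD mean of -0.95 (SE 0.37, SD 1.13, n = 3, limma adjusted p = 0.579) was -0.31 without NY1DD replicate 2, and the average of -0.65 was -0.33 without that array. The well median of its probe was -0.50 on NY1DD replicate 2. Ddx21, a nucleolar helicase, was below 0 on all C57BL/6J arrays (-0.28, -0.10 and -0.42) and on both sides in NY1DD (-0.15, 0.32 and -0.02). Ddx47 was likewise below 0 on all C57BL/6J arrays, with -0.05, -0.14 and -0.34. Ddx28, of the mitochondrial ribosome, had 1.56 on C57BL/6J replicate 2 and -0.59 to 0.87 on the other arrays.

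Ddx4, the Vasa helicase that marks germ cells, gave the lowest single ratio of any member, -5.02 on NY1DD replicate 2. On the other arrays it had -0.47 and 0.44 in NY1DD and -0.22, -0.13 and 0.48 in C57BL/6J, and the well median on NY1DD replicate 2 was -0.05. The single probe gave an NY1DD mean of -1.68 (SE 0.91, limma adjusted p = 0.619). Ddx31, for which NY1DD replicate 3 was at the lowest value of the file, had -1.41 and 0.80 on the 2 C57BL/6J arrays that measured it.

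Over all 17 helicases the average of both strains was above 0 for 4 and below 0 for 13, with a median of -0.05, beside a median of -0.01 over all features and 48.2% of them above 0. The group's median by array was -0.35, -0.06 and 0.11 in NY1DD and -0.05, -0.12 and 0.14 in C57BL/6J. Each strain had arrays on both sides of 0, and the spread within NY1DD (SD 0.23, n = 3) exceeded the mean of its array medians (-0.10). The count rests on single arrays and on the centring: 8 of 17 averages were above 0 with the values not centred, and 5 to 8 with 1 array left out (7 when this was NY1DD replicate 1, 8 when it was NY1DD or C57BL/6J replicate 2), the median then running from -0.119 to -0.001.

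**Figure D3:**
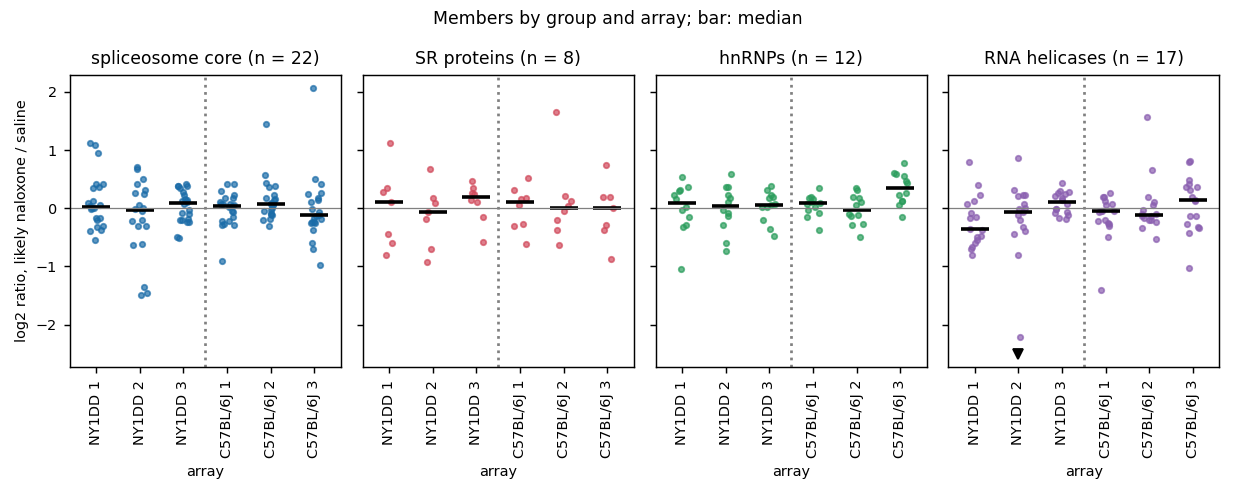
Log2 ratio (vertical axis) of every member of the 4 groups (panels, n = genes) on each array (horizontal axis), with the median as a bar; the triangle stands for Ddx4 at -5.02, below the axis. The group medians lie near 0 on most arrays, the hnRNP median on C57BL/6J replicate 3 (0.36) and the helicase median on NY1DD replicate 1 (-0.35) being farthest from it.

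In the spliceosome core, ratios of 1 particle did not share a sign. The Sm and U1 proteins had means above 0 for 3 of 5 genes in each strain. Snrpb, which encodes the SmB proteins of the Sm ring, had 0.35, 0.68 and 0.15 in NY1DD and 0.29, 0.38 and -0.07 in C57BL/6J. It was above 0 on 5 arrays, with C57BL/6J replicate 3 just below, and its average was 0.30 (SE 0.12, limma adjusted p = 0.419). Snrpd1, another protein of the ring, had 0.37, 0.00 and 0.38 in NY1DD and 0.41, -0.20 and -0.23 in C57BL/6J.

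Snrpd2, also of the Sm ring, was the 1 member whose 3 NY1DD arrays all lay above its 3 C57BL/6J arrays (1 of 54 members, 1.85%, against 5.21% of all features). It had 0.13, -0.01 and 0.38 against -0.07, -0.10 and -0.23. The gap between the nearest arrays was narrow, and the difference was 0.30 (SE 0.19, limma adjusted p = 0.969), or 0.17 with the correction for wells. The well median of the Snrpd2 probe was 0.15 on NY1DD replicate 2 and 0.03 on C57BL/6J replicate 1. Subtracting the well medians makes the strains overlap. Snrpc and Snrpa, of the U1 particle, spread widely in NY1DD, Snrpc with 0.95, -1.36 and -0.51 and Snrpa with 0.41, -0.61 and 0.13. Both were nearer 0 in C57BL/6J, from -0.28 to 0.37 and from -0.11 to 0.18.

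The U2 particle and U2AF, which recognise the branch point and the polypyrimidine tract, had 8 members. Sf3a1, of the SF3A complex, had 1.12, 0.51 and 0.38 in NY1DD and -0.05, -0.10 and 0.42 in C57BL/6J. The NY1DD arrays were all above 0, and C57BL/6J replicate 3 overlapped them. The NY1DD mean of 0.67 (SE 0.19, SD 0.40, n = 3, limma adjusted p = 0.503) had the smallest p of any member in that strain; without NY1DD replicate 1 it was 0.44. The difference between strains was 0.57 (SE 0.27, limma adjusted p = 0.969).

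Sf3b4 went the other way, with -0.21, -1.45 and -0.21 in NY1DD and -0.90, 0.57 and -0.97 in C57BL/6J, below 0 on 5 arrays. Its average was -0.53 (SE 0.26, limma adjusted p = 0.513), or -0.32 without NY1DD replicate 2. Sf3b1, the scaffold of SF3B at the branch point, had 0.01, -0.30 and 0.10 in NY1DD and 0.11, 0.01 and 0.50 in C57BL/6J. These near-zero means joined 3 probes that shared a sign on 0 of 6 arrays: on NY1DD replicate 1 they read -0.63, 0.25 and 0.40. U2af2, the large subunit of U2AF, had -0.31, -0.21 and 0.22 against 0.08, 0.15 and -0.14. Sf3b2 had an average of 0.15, which was 0.06 without NY1DD replicate 1, 0.08 without NY1DD replicate 3, 0.32 without NY1DD replicate 2 and 0.24 with the correction for wells. Sf3b3 and Sf3b5 had averages of -0.10 and 0.03, and U2af1l4, a relative of the small subunit, reached 1.45 on C57BL/6J replicate 2 and lay between -0.29 and 0.31 elsewhere.

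Prpf8, at the catalytic centre of the spliceosome, was close to 0 with 0.05, -0.22 and 0.28 in NY1DD and 0.04, 0.05 and -0.26 in C57BL/6J. Prpf4, of the U4/U6 particle, was above 0 on all C57BL/6J arrays (0.22, 0.07 and 0.24; mean 0.18, SE 0.14, limma adjusted p = 0.946) and had an NY1DD mean of 0.01. Prpf18, a factor of the second step of splicing, had 1.09, -1.50 and -0.49 in NY1DD, the widest spread of the core (SD 1.30), and -0.22, -0.31 and -0.02 in C57BL/6J. Its average of -0.24 became 0.06 without NY1DD replicate 2. Prpf38b stayed within -0.16 and 0.06 on all arrays.

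The LSm proteins divide by particle. Lsm2 and Lsm6, of the ring on U6 RNA, had -0.33, 0.42 and 0.14, and -0.40, -0.31 and -0.24, in NY1DD; in C57BL/6J they had -0.29, -0.04 and -0.71, and 0.05, 0.23 and -0.59. Lsm6 was thus below 0 on every NY1DD array, and Lsm2 on every C57BL/6J array. Lsm10 and Lsm11 belong to the U7 particle, which processes histone messenger RNA. Lsm10 had 0.03, 0.70 and 0.41 in NY1DD and 0.41, 0.18 and -0.38 in C57BL/6J, with an average of 0.22 (SE 0.14, limma adjusted p = 0.605). It was 0.13 with the correction for wells, 0.14 without NY1DD replicate 2 or C57BL/6J replicate 1, and 0.34 without C57BL/6J replicate 3. Lsm11 reached 2.07 on C57BL/6J replicate 3, the highest ratio of any member, and lay between -0.22 and 0.07 on the other 4 arrays that measured it. Lsm14a, of cytoplasmic RNA granules, had means of -0.23 and 0.09.

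Over the 22 core genes the mean was above 0 for 11 in NY1DD and 13 in C57BL/6J, and the medians were -0.01 and 0.02, beside -0.02 and 0.00 over all features. The difference between strains was above 0 for 9 of 22, with a median of -0.12; without NY1DD replicate 2 the median was 0.085.

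The hnRNP genes leaned above 0 in C57BL/6J, with 11 of 12 means above 0 and a median of 0.14, beside 49.9% of all features and a median of 0.00. C57BL/6J replicate 3 decided this: its hnRNP median was 0.36, with 11 of 12 genes above 0, against 0.08 and -0.02 on replicates 1 and 2. Without that array 7 of 12 were above 0 and the median was 0.024. In NY1DD 7 of 12 were above 0, and the array medians were 0.09, 0.03 and 0.06. The difference between strains was below 0 for 10 of 12 genes (median -0.09) with all arrays, and for 5 without C57BL/6J replicate 3.

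Hnrnph2, which binds runs of G, had the smallest p of the group, with 0.53, 0.58 and 0.07 in NY1DD and -0.09, 0.35 and 0.27 in C57BL/6J. It was above 0 on 5 arrays; the NY1DD mean was 0.40 (SE 0.16, SD 0.28, n = 3, limma adjusted p = 0.588) and the average 0.29 (SE 0.12, limma adjusted p = 0.446). Hnrnpd, or AUF1, which binds AU-rich elements of unstable messenger RNA, was the 1 member whose NY1DD arrays all lay below its C57BL/6J arrays (1 of 54 members, 1.85%, against 4.2% of all features). It had -0.03, -0.60 and 0.02 against 0.08, 0.11 and 0.61. The nearest arrays were almost level, and the difference of -0.47 (SE 0.26, limma adjusted p = 0.969) was -0.27 when NY1DD replicate 2 was left out and -0.30 when C57BL/6J replicate 3 was. The well median of 1 of its 2 probes was -0.57 on NY1DD replicate 2.

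Hnrnpk, which binds C-rich RNA, had 0.16, -0.14 and 0.39 in NY1DD and 0.19, -0.12 and 0.59 in C57BL/6J, and its 2 probes shared a sign on 5 of 6 arrays. Both strains had arrays above and below 0. Hnrnpa2b1, which binds RNA trafficking elements, had 0.32, 0.17 and -0.48 in NY1DD and -0.37, -0.49 and 0.44 in C57BL/6J. Its 2 probes also shared a sign on 5 arrays; on NY1DD replicate 1 they read -0.13 and 0.78. Hnrnpc had 0.02, 0.22 and 0.18 against 0.09, -0.10 and 0.46; 1 of its 2 probes was above 0 on all 6 arrays, from 0.18 to 0.56, and the other on 2.

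The remaining hnRNPs had strain means between -0.21 and 0.19. Hnrnpll, a regulator of alternative splicing in lymphocytes, had 0.17, 0.20 and 0.22 in C57BL/6J, the narrowest set of any member in a strain (SD 0.03), and -1.05, 0.37 and 0.05 in NY1DD. Hnrnpu, a nuclear scaffold protein, had -0.33, -0.08 and 0.02 in NY1DD and 0.02, -0.29 and 0.77 in C57BL/6J. Hnrnpr had 0.37, -0.73 and 0.32 against 0.11, -0.27 and 0.56. The highest C57BL/6J value of both was on replicate 3, as for Hnrnpd, Hnrnpk, Hnrnpc and Hnrnpa2b1.

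**Figure D4:**
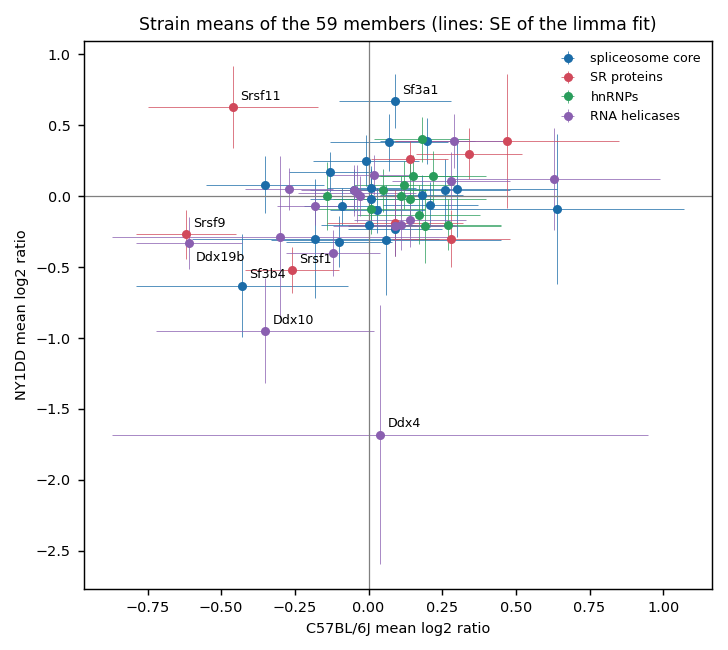
Mean log2 ratio in NY1DD (vertical axis) against that in C57BL/6J (horizontal axis) for the 59 members, coloured by group, with lines for the SE of the limma fit. Most points lie within 0.5 of 0 on both axes. Srsf1, Srsf9, Ddx19b and Ddx10 are among the members below 0 in both strains, and Srsf11 is among those on opposite sides.

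The 4 groups lay close together. The mean of the 3 array medians in NY1DD was 0.03 ± 0.06 (SD, n = 3) for the core, 0.07 ± 0.13 for SR proteins, 0.06 ± 0.03 for hnRNPs and -0.10 ± 0.23 for helicases. In C57BL/6J it was 0.00 ± 0.11, 0.04 ± 0.06, 0.14 ± 0.20 and -0.01 ± 0.13. The groups farthest apart, SR proteins and helicases in NY1DD and hnRNPs and helicases in C57BL/6J, were nearer to each other than the SD of 1 of the pair. That SD leaves out that the groups share arrays. Array by array in C57BL/6J, the hnRNP medians (0.08, -0.02 and 0.36) all exceeded those of helicases (-0.05, -0.12 and 0.14). In NY1DD the SR medians (0.10, -0.07 and 0.19) exceeded those of helicases (-0.35, -0.06 and 0.11) except on replicate 2. These pairs were picked as the farthest apart, and no test between groups was run. Members were above 0 on all 3 NY1DD arrays for 9 of 54 genes (16.7%, against 13.6% of all features) and below on all for 8 (14.8%, against 14.9%). In C57BL/6J they were above 0 on all 3 arrays for 9 of 57 (15.8%, against 14.2%) and below for 9 (15.8%, against 17%). No member was past 1.5-fold on 1 side on all 3 arrays of a strain, against 0.226% (above) and 0.397% (below) of all features in NY1DD, and 0.0948% and 0.896% in C57BL/6J.

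The spread of the members differed by array. In NY1DD their SD was 0.48, 0.88 and 0.26, beside 0.56, 0.57 and 0.47 over all features. Ddx4 alone raised the second of these: without it the SD of the other 55 members on NY1DD replicate 2 was 0.59. In C57BL/6J the SD was 0.32, 0.43 and 0.50, beside 0.42, 0.46 and 0.54. On NY1DD replicate 2 27.5% of the variance over all probes went with their well position, against 3.20% to 11.4% elsewhere. On that array 16 of 56 members (28.6%) were past 1.5-fold, against 20.0% of all features, and on NY1DD replicate 3 this held for 0 of 58, against 11.8%. The correction for wells turned the sign of 7 of 59 means in NY1DD, 6 in C57BL/6J, 2 in the difference and 9 in the average. The part of plate position in the single ratios was not tested beyond the corrected means given here.

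Where a gene had several probes, they gave a measure of the error of 1 probe. Of the 12 members with 2 or 3 probes, 7 had probe means over the 6 arrays of 1 sign; Hnrnpc, Hnrnpd, Sf3b1, Srsf3 and U2af2 did not. Srsf1 had 3 probes. Probe 2 was below 0 on all 6 arrays (-1.08, -0.23 and -0.72; -0.71, -0.05 and -0.81), probe 1 on 3 and probe 3 on 4 of the 5 it measured. The probes of Srsf1 shared a sign on 2 of 6 arrays, although their mean was below 0 on each. The other 5 genes with 1 sign throughout rest on 1 probe each.

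**Figure D5:**
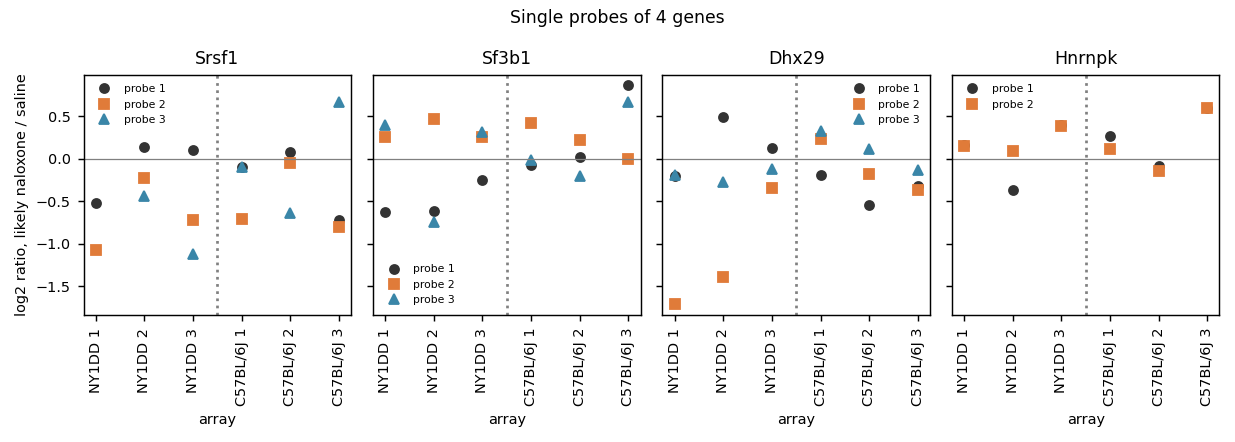
Log2 ratio (vertical axis) of single probes (symbols) on each array (horizontal axis) for Srsf1, Sf3b1, Dhx29 and Hnrnpk. The 2 probes of Hnrnpk lie close together on most arrays, those of Sf3b1 spread on both sides of 0 on every array, and 1 probe of Dhx29 stands apart at -1.71 and -1.39.

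Genes of the same pathway outside the naming rule were counted from 3 lists. Of 85 other spliceosome proteins 42 were measured; 0 passed in limma, and their mean was above 0 for 16 in NY1DD, 13 in C57BL/6J and 16 in the average, whose median was -0.05. Rbm22, a protein of the catalytic spliceosome, had the smallest p of the list in the average, with -1.23 and -2.18 on NY1DD replicates 1 and 2 and 0.05, -1.56 and -0.62 in C57BL/6J. It was below 0 on 4 of 5 arrays, with an average of -1.21 (SE 0.27, limma adjusted p = 0.199). Aqr, an intron-binding helicase, had -0.34 (SE 0.10, limma adjusted p = 0.280). Smn1, of the complex that loads Sm rings, was above 0 on all 6 arrays, as were 2.45% of all features. It ran from 0.07 to 1.06, with an average of 0.37 (SE 0.15, limma adjusted p = 0.444).

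Of 76 splicing regulators and kinases 43 were measured, with 0 called and an average above 0 for 24. Srrm2, a scaffold of the nuclear speckles in which Srsf2 is also found, had 0.64, 0.30 and 0.40 in NY1DD and 0.25, 0.27 and 0.47 in C57BL/6J. It was above 0 on all 6 arrays, with an average of 0.39 (SE 0.10, limma adjusted p = 0.216). Over all features 2.45% were above 0 on all 6 arrays, and the genes named from the lists were picked by smallest p. Pnn, also of speckles, was below 0 on 5 arrays, with an average of -0.36 (SE 0.15, limma adjusted p = 0.458). Of 23 RNA helicases with other names 4 were measured and 0 passed, Eif4a1, the helicase of the cap-binding complex, ranging from 0.05 to 0.38 over the 6 arrays with an average of 0.17 (SE 0.09, limma adjusted p = 0.558).

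Cell type markers were read as ratios, which cannot show whether a cell type was present. The 10 neuron markers had a median over their means of 0.15 in NY1DD and 0.10 in C57BL/6J, with 8 and 7 above 0. The 6 oligodendrocyte markers measured of 8 had 0.22 and 0.12, and the 7 astrocyte markers of 8 had -0.11 and 0.07. The 2 choroid plexus markers measured of 4 had means above 0 in both strains, with medians of 0.35 and 0.46. Folr1 was above 0 on all 6 arrays, from 0.19 to 1.27, with an average of 0.60 (SE 0.17, limma adjusted p = 0.257). Ttr crossed 0 in each strain, with 0.73, -0.21 and -0.14 in NY1DD and -0.12, 0.44 and 0.56 in C57BL/6J. Its average was 0.21 (SE 0.16, limma adjusted p = 0.671). The 3 microglia markers of 8 had medians of 0.00 in both strains. Laptm5 was above 0 on all 6 arrays, with an average of 0.40 (SE 0.10, limma adjusted p = 0.202). C1qa went the other way, with an average of -0.26 (SE 0.13, limma adjusted p = 0.513), and C1qb had 0.00. Over all features 2.45% were above 0 on all 6 arrays, as Folr1 and Laptm5 were. The 4 endothelium markers of 7 had 0.00 and 0.02, and of 8 blood markers 0 were measured. In limma 0 markers passed in any comparison, and their part in the ratios of the splicing genes was not tested.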

How the data were processed

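The table deposited by the authors holds natural log (ln) ratios between both channels, 1 column per array; 0 other columns of sample values were present. The base was read from the values: after back-transformation with base e, 401 of 67772 values were whole multiples of 0.1 (tolerance 1e-06), against 1 with base 2 and 2 with base 10. How the ratios were normalised and corrected for background is not given in the sources used.

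Control spots (30 of 11532) were left out, values at the lowest ratio of 0.01 were set missing, values were converted to log2 and each array was centred on its median. A probe needed values on 2 arrays of each strain, and probes of 1 symbol were averaged, giving 9685 features. Limma (3.58.1, R 4.3.3) was fitted to all 6 arrays with 1 mean for each strain (two-sided, Benjamini-Hochberg over all features, threshold 0.05). The code was tested on data simulated with the measured spread. In NY1DD it called 1 of 50 features shifted by 0.5, 23 of 50 shifted by 1 and 44 of 50 shifted by 2 in log2 ratio.

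Members and lists were chosen with earlier results of these data known. Named genes: per comparison and group, up to 3 a side by p among those of 1 sign on every array of the strain (strains apart for the difference, 5 arrays for the average), and a set of well-known genes; from other lists, up to 2 a side. Roles within the groups were assigned with values known, and further members are given to complete each role. Alternatives covered scaling, filters, wells, probes, blocks and left-out arrays.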

Additional observations from a re-analysis of the deposited data

Results flagged for a closer look

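Srsf11 stood out because its ratios lay above 0 on both NY1DD arrays that measured it (1.12 and 0.14) and below 0 on both C57BL/6J arrays that measured it (-0.28 and -0.64). The difference of NY1DD minus C57BL/6J was 1.09 (SE 0.41, limma adjusted p = 0.969), so the test of the difference did not pass. The gene has 1 value missing in each strain and a single probe. With fewer arrays, the strains lie apart more readily than with all arrays measured. The share of all features with such a split was not counted. The difference was 1.00 with the correction for wells.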

How the results depend on the processing

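Over 17 alternatives limma called 0 members and 0 features in each comparison, and the smallest adjusted p of a named gene was 0.143 (Srsf9 in C57BL/6J, arrays scaled to 1 spread). Of 833 values of the 53 results chosen by the naming rule, 832 kept their sign under the alternatives. Except for the average, that rule asks for 1 sign on every array of the strain, or for strains apart. Leaving out an array can then hardly turn a sign, so much of this count was fixed by the choice. Fits of single probes were not among these values. The average of Prpf18 turned from -0.24 to 0.06 without NY1DD replicate 2, and ranged from -0.59 to 0.06 over the left-out arrays. The SR median in NY1DD (0.038) was -0.229 over genes on all 6 arrays, -0.228 with the lowest values kept and -0.098 with each probe fitted alone. It ranged from -0.368 to 0.177 when 1 array was left out, where Srsf6 or Srsf11 also left the fit in some cases. The hnRNP median in NY1DD was 0.032 without centring (0.001 with it). With 1 array left out, the SR median ranged from 0.032 to 0.140 in C57BL/6J, from -0.240 to 0.086 in the difference and from -0.152 to 0.087 in the average, and the core median from -0.065 to 0.013 in NY1DD and from -0.119 to 0.085 in the difference.

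Members with an unadjusted p under 0.05 numbered 2 to 7 in NY1DD, 1 to 4 in C57BL/6J, 0 to 2 in the difference and 4 to 10 in the average. With each probe fitted alone, probes were counted in place of members, and 7, 3, 3 and 12 of 74 had such a p. Replicate numbers did not pair the arrays: same-numbered arrays had deviations correlated at -0.0704, 0.0566 and 0.0203. With replicate number as a block, 4, 3, 1 and 7 members had an unadjusted p under 0.05 and 0 were called. Without intensities, signal over background is unknown, and 6 arrays limit the precision.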

Other observations

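Across the members, which are not independent replicates, NY1DD replicate 3 and C57BL/6J replicate 1 had a Pearson correlation of 0.516, whereas the other 14 pairs of arrays ran from -0.0693 to 0.217. Over all features the same pair had 0.178, within the range of -0.0701 to 0.191 for all pairs. Both arrays have the narrowest spread of members, with SDs of 0.26 and 0.32.

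Other genes of the spliceosome with an unadjusted p under 0.05 included Rbm42 and Usp39, a factor of tri-snRNP joining. Rbm42 had a mean of 0.61 (SE 0.20, limma adjusted p = 0.541) in NY1DD. The difference between strains was 0.72 (SE 0.29, limma adjusted p = 0.969) for Rbm42 and 0.93 (SE 0.36, limma adjusted p = 0.969) for Usp39. Thoc3, of the complex that couples transcription to RNA export, had -0.51 (SE 0.17, limma adjusted p = 0.503) and Slu7, a second-step factor, -0.50 (SE 0.20, limma adjusted p = 0.707) in C57BL/6J. Of the 42 genes of this list measured, 4 had such a p in NY1DD, 2 in C57BL/6J and 2 in the difference. These counts lay near the shares over all features, which were 8.35%, 6.93% and 4.5%.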
